A study of Mus musculus with 12 samples.

Results

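The comparison set reprogrammed mouse epiblast cells kept for 24 passages, called rEpiES cells, against mouse embryonic stem (ES) cells on single-colour expression arrays. All arrays whose titles name those cells were used, 3 of rEpiES cells at passage 24 and 3 of ES cells, which is 6 of the 12 arrays of the series. The other 6 arrays, 3 of rEpiES cells at passage 4 and 3 of cEpi cells, entered only as levels set beside the comparison. The rEpiES cells came from early post-implantation epiblast of embryos with 129/Sv or ROSA 129/Sv mothers and fathers that carry the Oct4-ΔPE-EGFP transgene, a green fluorescent reporter driven by the Pou5f1 (Oct4) promoter and distal enhancer without its proximal enhancer. The epiblast was cultured in ES medium with fetal bovine serum and leukaemia inhibitory factor (LIF) on mitomycin-treated embryonic fibroblast feeders, and colonies that turned on the reporter were picked and grown as rEpiES cells. The same mating text stands on the ES samples, whose passage number and culture are not described in the sources used here. Nor do the labels say whether the 3 arrays of a group are separate lines, clones or cultures, so the p-values below measure the spread between arrays, which may be technical.

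Pluripotent mouse cells exist in more than one state. Naive cells, such as ES cells from the pre-implantation embryo, are held in self-renewal by LIF acting through Stat3 and carry transcription factors such as Klf2, Klf4, Tfcp2l1 and Zfp42. Post-implantation epiblast keeps Pou5f1 and Sox2 but gains Fgf5, Otx2 and Dnmt3b, and it is primed to form the primitive streak, in which WNT and Nodal signals turn on Mixl1, Eomes, Lhx1 and Foxa2. Epiblast cells that return to a naive state in culture are called reprogrammed because they regain the first programme and leave the second.

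Levels are the deposited quantile-normalised signals on the log2 scale, so that a difference of 1 is a 2-fold change. A probe was taken as detected where its deposited signal-to-noise score was at least 3, and the 13009 probes detected on all 3 arrays of either group were tested with limma. Detected probes per array numbered 14422 to 15637 on the rEpiES passage 24 arrays and 12061 to 13827 on the ES arrays, out of 33012. The arrays also differed in spread, with a median standard deviation across tested probes of 0.10 among the rEpiES passage 24 arrays and 0.20 among the ES arrays. Pairwise correlations over the tested probes were 0.991 to 0.994 among rEpiES passage 24 arrays and 0.967 to 0.970 among ES arrays.

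Between the groups, 7432 of 13009 probes (57.1%) were called at a limma Benjamini-Hochberg adjusted p under 0.05. Of these, 3778 were higher and 3654 lower in rEpiES cells at passage 24, so that 50.8% of calls were higher. That split depends on the scaling, as 79.9% of calls were higher when the linear signals were only divided by each array's median and 77.9% with no further normalisation. The median difference over all tested probes was 0.05 in the quantile-normalised values, against 0.45 with median scaling and 0.39 with no further normalisation, so the direction of differences smaller than that shift depends on the scaling. At least a 2-fold difference was reached by 2051 probes called higher (15.8% of those tested) and 1343 called lower (10.3%). No ES array detected 572 of the 2051 higher probes, and no rEpiES passage 24 array detected 92 of the 1343 lower ones. A named gene was taken by its brightest probe, which gave 7680 genes, of which 2408 (31.4%) were called higher and 2057 (26.8%) lower, with a median difference of 0.09.

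**Figure D1:**
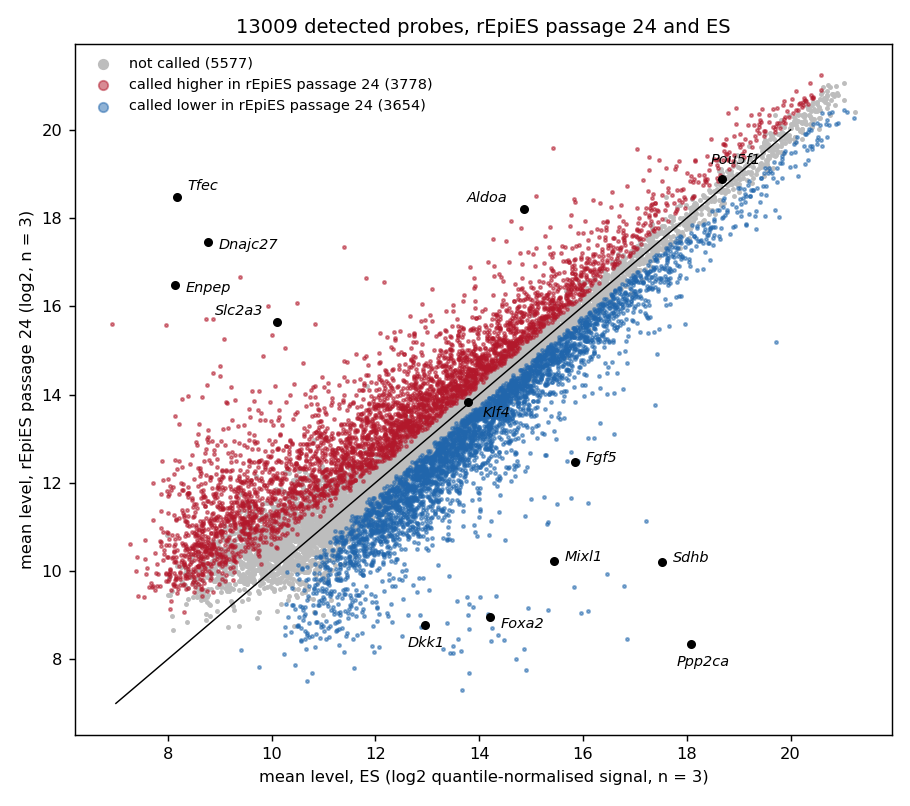
Mean level of each of the 13009 tested probes in ES cells (horizontal axis) and rEpiES cells at passage 24 (vertical axis), both log2 quantile-normalised signals over 3 arrays. Red points were called higher and blue points lower in rEpiES cells at passage 24. Tfec and Ppp2ca lie farthest from the line of equal levels among named genes, while Pou5f1 and Klf4 lie near it.

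Both groups carried the transcripts that define pluripotent cells. Of the 30 core and naive genes tested, 19 were called and 10 of those by at least 2-fold, while Pou5f1 and Klf4 were not called. The 30, the 19 and the 10 all include Tcf3, which on this array is the E2A gene. Over all genes 31.4% were called higher and 26.8% lower, and whether the 19 calls exceed that share was not tested. All 14 tested core pluripotency genes were detected on the 3 rEpiES passage 24 arrays and 13 of them on the 3 ES arrays. Pou5f1, the POU-domain regulator of pluripotency, read 18.91, 18.94 and 18.81 in rEpiES cells at passage 24 and 18.41, 18.57 and 19.02 in ES cells. Its groups overlapped and its difference of 0.22 ± 0.17 (standard error) was not called (limma adjusted p = 0.318), though it was called without ES replicate 3 (0.40, limma adjusted p = 0.0173). Sox2, the partner of Pou5f1 on DNA, read 17.17, 17.23 and 17.07 in rEpiES cells at passage 24, against 17.37, 17.44 and 17.41 in ES cells. The difference of −0.25 ± 0.08 had a limma adjusted p of 0.0397, but its sign turned with the scaling, to 0.13 with median scaling. Klf4, a naive-state zinc finger factor, differed by 0.03 ± 0.09 with overlapping groups (limma adjusted p = 0.795). Cdh1, the epithelial cadherin, differed by −0.17 ± 0.10 and was not called (limma adjusted p = 0.191).

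Among the 14 core genes, 4 were called higher and 4 lower, with a median difference of 0.13. One of the 4 higher is Tcf3, which on this array is the E2A helix-loop-helix gene on chromosome 10 and not Tcf7l1, the factor also called Tcf3 in ES cells. Without it, 3 of 13 were higher and 4 lower, with a median of 0.09. Foxd3, a forkhead repressor of pluripotent and neural crest cells, read 13.18, 13.01 and 13.44 in rEpiES cells at passage 24, against 8.53, 10.17 and 8.52 in ES cells, where no array detected it. Foxd3 averaged 13.03 in rEpiES cells at passage 4 and 12.49 in cEpi cells, so the ES arrays were the ones that stood apart. Between the 2 groups compared, it was at least 17.6-fold higher in rEpiES cells at passage 24. Such a bound sets the mean of the brighter group over the mean of the dimmer one, in which each array counts at its own value or at the lowest detected signal of that array, whichever is higher. For Foxd3, and for Tfec and Ppp2ca below, the undetected values lay above that floor, so the bound equals the plain fold difference. The words at least therefore mark a dimmer group without detection and are not a statistical lower limit. Dppa4, a chromatin protein of pluripotent cells, was higher by 2.12 ± 0.14. Zfp281, a zinc finger factor that promotes the exit from the naive state, was lower, at 15.75 ± 0.03 in rEpiES cells at passage 24 and 17.24 ± 0.21 in ES cells (SD, n = 3 each).

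Of 16 tested naive-state genes, 7 were higher and 4 lower, with a median of 0.22. The rises were led by Tcl1, an Akt coactivator of ES cells, which read 14.39, 14.26 and 14.25 in rEpiES cells at passage 24 and 11.19, 11.42 and 11.76 in ES cells. Every rEpiES passage 24 array stood above every ES array, a difference of 2.85 ± 0.16 (limma adjusted p = 0.000117). Klf2, a Krüppel-like factor of the naive network, was higher by 2.50 ± 0.09. A second probe of Klf2 was higher by 5.64 ± 0.47, with detection on 1 of 3 ES arrays. Stat3, which carries the LIF signal to the nucleus, was higher by 1.89 ± 0.21, and Pecam1, an adhesion molecule of naive cells and endothelium, by 2.43 ± 0.57, with detection on 1 of 3 ES arrays. Zfp42, known as Rex1 and a marker of the naive state, read 18.56, 18.58 and 18.63 in rEpiES cells at passage 24, against 17.47, 17.55 and 17.89 in ES cells. It was 1.94-fold higher (difference 0.96 ± 0.13, limma adjusted p = 0.0018), and the cEpi arrays lay far below both, at a mean of 13.53. Tfcp2l1, a naive-state transcription factor, fell by 1.57 and Nr5a2, a nuclear receptor that regulates Pou5f1, had a difference of −1.27. Dppa3, also called Stella, read 15.97, 16 and 16.1 in rEpiES cells at passage 24 and 16.75, 16.84 and 16.28 in ES cells, a difference of −0.60 ± 0.16 that median scaling reduced to −0.24 (limma adjusted p = 0.246). The calls of Sox2 and Dppa3 were lost when any 1 array other than ES replicate 3 was left out, with limma adjusted p values of 0.0658 to 0.12 for Sox2 and 0.058 to 0.0795 for Dppa3, and that of Pecam1 without rEpiES passage 24 replicate 3 (0.0501). The LIF-STAT3 list had 7 genes higher and 2 lower of 16, with a median of 0.30. Of all genes, 31.4% were higher and 26.8% lower. Mcl1, an anti-apoptotic protein, was higher by 1.23 ± 0.11 and Pim3, a serine/threonine kinase, by 1.16 ± 0.19. The 2 lower genes were Fos (−1.88) and Il6st (−0.60), while Klf4, Myc, Jak1 and Pim1 were among those not called.

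**Figure D2:**
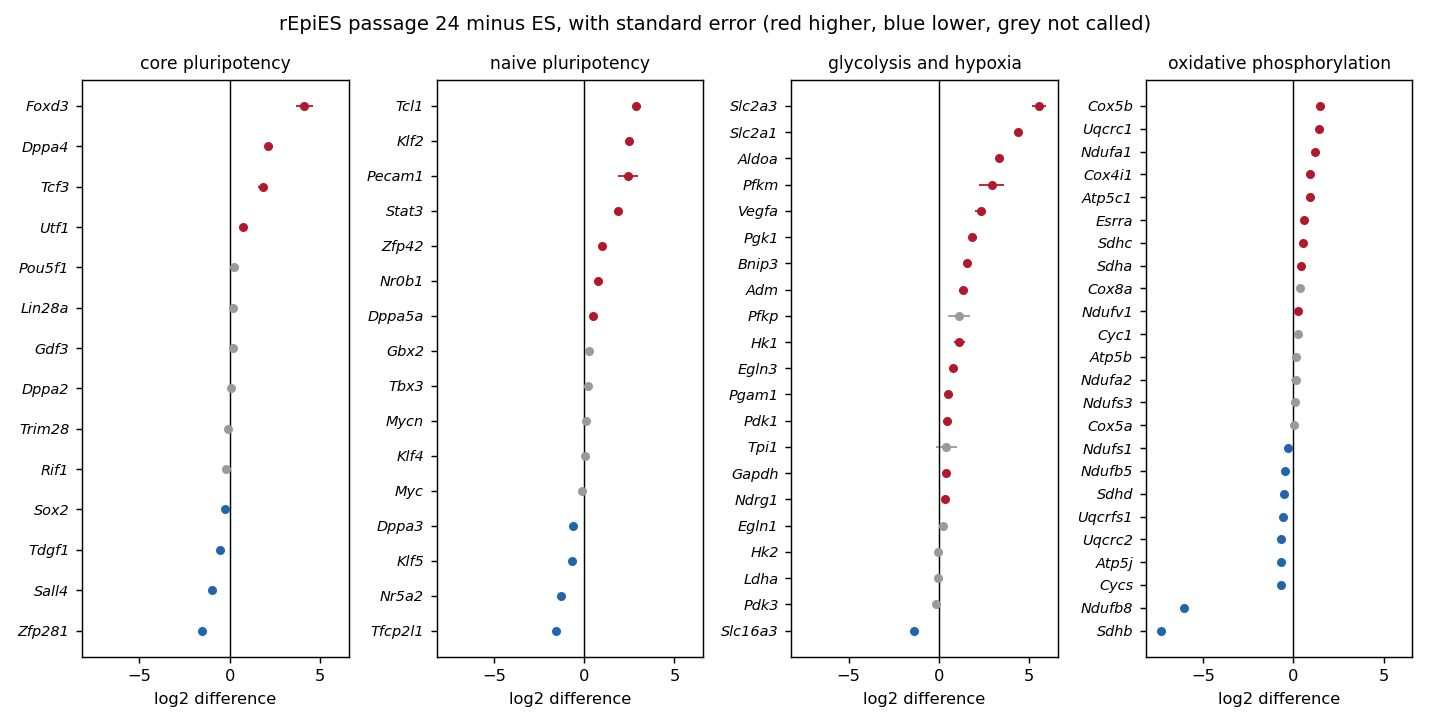
Difference of rEpiES passage 24 minus ES on the log2 scale for each tested gene of 4 lists, with its standard error. Core and naive pluripotency genes spread to both sides of 0, most glycolysis genes lie above it, and Sdhb at −7.31 and Ndufb8 at −6.07 stand apart from the other oxidative phosphorylation genes.

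Primitive streak genes were lower at passage 24. These are genes of the cells that leave the epiblast to form mesoderm and endoderm. Of 20 genes on the list, 17 had a named probe and 8 were detected well enough to test. Of those 8, 7 were lower in rEpiES cells at passage 24 and none was higher, with a median difference of −2.85 against 0.09 over all genes. The share of all genes called lower was 26.8%, and 31.4% were called higher. All 8 were detected on the 3 ES arrays and 5 on the 3 rEpiES passage 24 arrays. The 3 others entered the test through the ES arrays, in which they were high. With detection required on all 6 arrays the 5 remaining genes were all lower, with a median of −1.58.

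Foxa2, a forkhead factor of definitive endoderm and node, read 8.42, 8.53 and 9.93 in rEpiES cells at passage 24, of which 1 array detected it, against 14.15, 14.33 and 14.12 in ES cells. No array of either group came near the other group, and the difference was −5.24 ± 0.42 (limma adjusted p = 0.000311). Mixl1, a homeobox gene of the streak, read 9.91, 10.20 and 10.55 in rEpiES cells at passage 24 and 15.41, 15.51 and 15.40 in ES cells. This was a 37.3-fold lower level (difference −5.22 ± 0.17, limma adjusted p = 3.07e-05). Lhx1, a LIM homeobox gene of node and anterior mesendoderm, read 8.31, 9.99 and 9.91 in rEpiES cells at passage 24, none of them detected, and 13.86, 13.82 and 14.38 in ES cells. It was at least 24.5-fold lower in rEpiES cells at passage 24 (limma adjusted p = 0.000744). Evx1, a homeobox gene of the posterior streak, fell by 2.66 on the log2 scale, and Eomes, a T-box factor of mesendoderm, fell by 1.58. Fgf17, a growth factor expressed around gastrulation, fell by 0.74, while Chrd, a BMP antagonist of the node, differed by −0.83 and was not called.

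For 6 of the 7 lower streak genes the passage 4 and cEpi means both lay above the passage 24 mean, and the exception was Fgf17, which was lowest in cEpi cells at 10.55. Mixl1 averaged 13.23 in rEpiES cells at passage 4 and 14.76 in cEpi cells. Foxa2 averaged 11.49 in rEpiES cells at passage 4 and 15.06 in cEpi cells. The passage 4 level of Foxa2 lay between those of passage 24 and ES, and Evx1 at 10.94 and Lhx1 at 12.13 in rEpiES cells at passage 4 did so too, whereas Eomes at 13.91 did not. In bulk RNA such as this, fewer cells of a type and less RNA per cell cannot be told apart.

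Of 21 WNT pathway genes tested, 14 were lower and 3 higher, with a median of −0.86, where 26.8% of all genes were lower and 31.4% higher. Only 14 of the 21 were detected on all 6 arrays. Dkk1, Rspo3, Wnt3 and Wnt8a entered the test through the ES arrays, in which they were high, and Wnt5a and Fzd5 through the rEpiES passage 24 arrays. Dkk1, a secreted WNT antagonist that WNT itself induces, read 8.84, 8.66 and 8.81 in rEpiES cells at passage 24, none detected, and 12.83, 12.92 and 13.14 in ES cells. It was at least 18.3-fold lower (difference −4.19 ± 0.11, limma adjusted p = 2.19e-05). Rspo3, an R-spondin that amplifies WNT signals at the receptor, read 8.63, 8.59 and 8.58 in rEpiES cells at passage 24, also undetected, against 11.89, 11.55 and 11.79 in ES cells. That was at least an 8.82-fold difference. Among the ligands, Wnt3, which is needed for the streak to form, read 8.79, 9.59 and 8.67 in rEpiES cells at passage 24 and 12.26, 12.00 and 11.92 in ES cells (difference −3.05 ± 0.27, limma adjusted p = 0.000405), with detection on 1 rEpiES passage 24 array. Wnt8a fell by 1.70 and was detected on no rEpiES passage 24 array, while the non-canonical ligand Wnt5a was higher by 2.03, with detection on 1 ES array.

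Of the receptors, Lrp5 fell by 2.67, Fzd2 by 1.10 and Fzd1 by 0.77 on the log2 scale, and Fzd5 was higher by 1.39, with detection on 1 ES array. Inside the cell, Tcf7l1, a repressing TCF factor, fell by 1.68 and the kinase Gsk3b by 1.05, while Ctnnb1, which encodes β-catenin, was higher by 2.15. Sp5, a zinc finger gene that is a direct WNT target, read 11.21, 10.95 and 11.58 in rEpiES cells at passage 24, against 14.85, 14.76 and 15.03 in ES cells. It was 12.4-fold lower (difference −3.63 ± 0.18, limma adjusted p = 8.33e-05), and rEpiES cells at passage 4 were at the ES level, with a mean of 14.63. Median scaling left the median of the WNT list at −0.56 and 9 genes lower.

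Sp5 and Dkk1 had the largest falls on the WNT list and are both known WNT targets, so their promoters are shown, each 250 bases before to 50 bases after the RefSeq transcription start, 5′ to 3′, with matches to the TCF/LEF core CTTTGA on either strand in capitals. Sp5 lies on the plus strand of GRCm38.p6 at chr2:70474673-70474972 and Dkk1 on the minus strand at chr19:30549447-30549746.
Sp5: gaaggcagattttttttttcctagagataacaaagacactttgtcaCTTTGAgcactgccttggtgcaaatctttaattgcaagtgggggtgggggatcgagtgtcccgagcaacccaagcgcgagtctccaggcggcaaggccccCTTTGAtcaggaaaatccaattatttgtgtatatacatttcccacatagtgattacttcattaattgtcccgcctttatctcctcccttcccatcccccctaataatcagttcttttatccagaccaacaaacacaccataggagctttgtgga
Dkk1: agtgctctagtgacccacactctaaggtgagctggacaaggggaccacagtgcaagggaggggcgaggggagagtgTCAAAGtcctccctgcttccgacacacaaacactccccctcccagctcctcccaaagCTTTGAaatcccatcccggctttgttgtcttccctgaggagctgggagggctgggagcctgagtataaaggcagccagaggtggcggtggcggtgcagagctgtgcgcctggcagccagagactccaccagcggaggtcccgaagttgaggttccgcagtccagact
The Sp5 window held the core 204 and 104 bases before the start, and the Dkk1 window 174 and 117 bases before it. Of the 10 lower WNT genes with a promoter in the table, 5 (50%) held the core, as did 4372 of all 27025 promoters (16.2%). None of the 5 lower streak genes with a promoter held it. A FOXH1 motif, AATNNACA on either strand, was in none of these windows and in 3332 of all promoters (12.3%). These are matches of letters and do not show binding, and the absence of a match says only that the letters are not in the window.

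**Figure D3:**
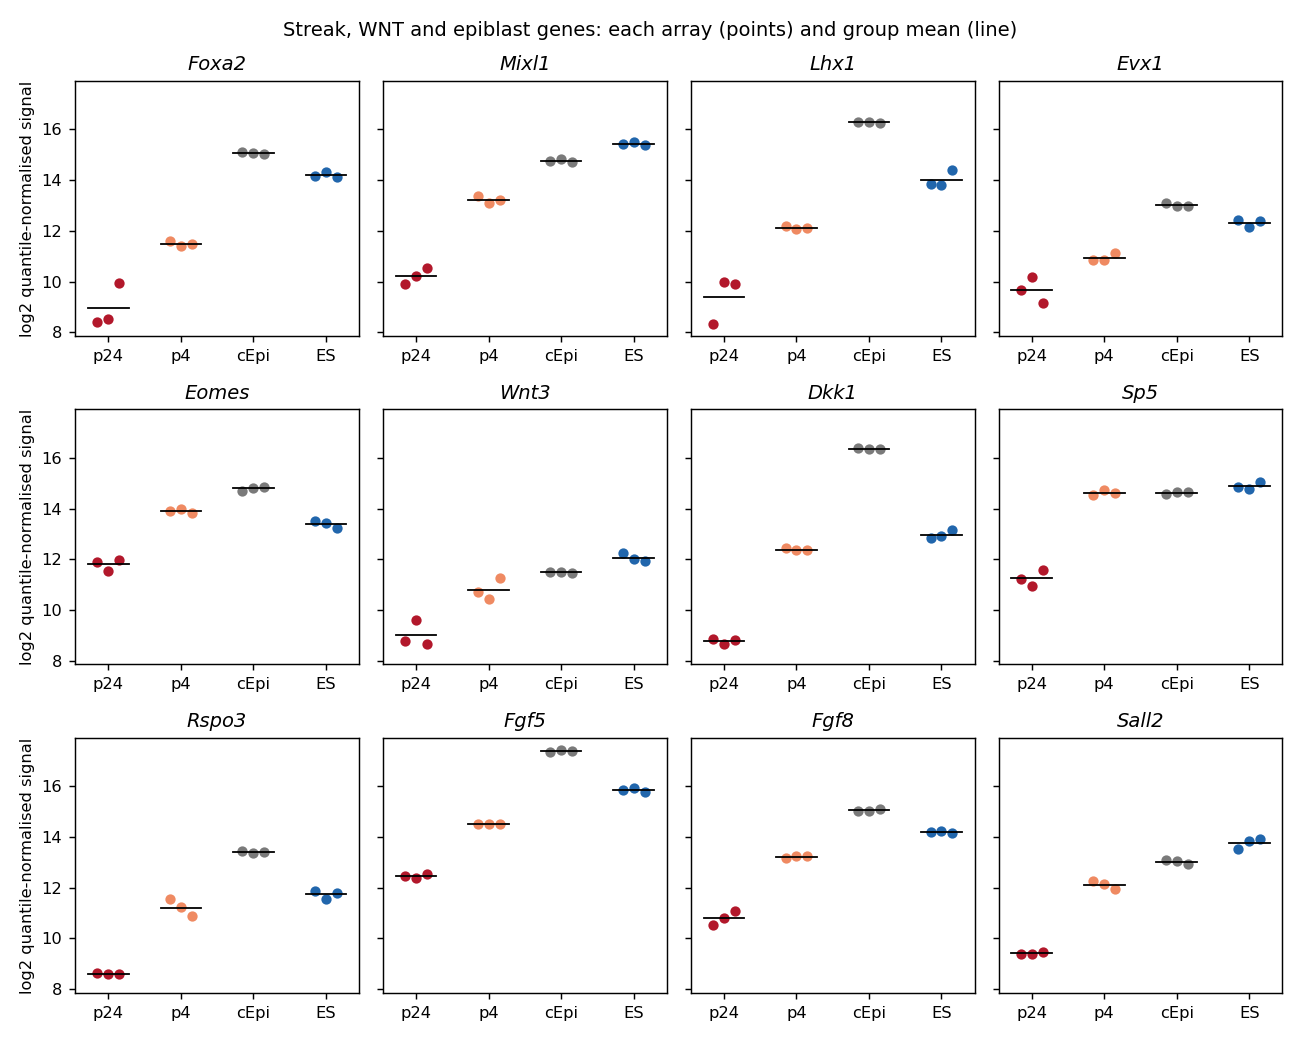
Levels of 12 streak, WNT and epiblast genes on every array (points) with the group mean (line), as log2 quantile-normalised signal. Columns are rEpiES cells at passage 24 (p24), rEpiES cells at passage 4 (p4), cEpi cells and ES cells. The 3 passage 24 arrays lie lowest in every panel, and those of Mixl1 stand at 9.91 to 10.55 against 15.40 to 15.51 in ES cells.

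Genes of the post-implantation epiblast split, with 7 higher and 9 lower of 18 tested. The shares over all genes were 31.4% higher and 26.8% lower. Fgf5, the growth factor that marks primed epiblast, read 12.45, 12.39 and 12.54 in rEpiES cells at passage 24 and 15.87, 15.93 and 15.77 in ES cells. The groups were well separated and Fgf5 was 10.5-fold lower (difference −3.39 ± 0.09, limma adjusted p = 1.87e-05), with cEpi cells highest at a mean of 17.40. Fgf8, a streak and epiblast growth factor, fell by 3.37 on the log2 scale, and Sall2, a spalt-family zinc finger factor, was at least 20.4-fold lower, with no detection at passage 24. Otx2, a homeobox factor of primed and anterior epiblast, differed by −0.75 ± 0.10 (limma adjusted p = 0.00146), which was no longer called with median scaling. In the other direction, Sox3, a SoxB1 factor close to Sox2, read 15.78, 15.70 and 15.87 in rEpiES cells at passage 24, against 12.76, 12.92 and 12.36 in ES cells, an 8.61-fold higher level. Grhl2, a regulator of epithelial genes, was higher by 2.58 and Fgf15, an FGF of the early neural tube, by 2.52, each with detection on 1 ES array. The median of this list was −0.25 and turned to 0.16 with median scaling.

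Nodal, BMP and FGF signalling lists showed single genes rather than one direction. Their counts stand beside 31.4% higher and 26.8% lower over all genes. Of 12 Nodal-Activin genes 8 were lower and 3 higher, with a median of −0.58, but 1 was lower with median scaling. Lefty2, a feedback inhibitor of Nodal, was higher by 1.20 ± 0.10, and the type I receptor Tgfbr1 fell by 1.30. Among the 12 BMP genes, Msx1 and Msx2, homeobox targets of BMP, were lower (differences of −3.80 and −2.08, Msx1 with detection on 1 rEpiES passage 24 array), and the receptor Bmpr1a, detected on 2 ES arrays, was higher by 2.73 ± 0.16. Of 17 FGF-ERK genes 5 were higher and 8 lower. The adaptor Shc1, detected on 2 ES arrays, was higher by 3.40 ± 0.49 and the ETS factor Etv5 by 1.83 ± 0.08, whereas the immediate early gene Egr1 fell by 1.81. The immediate early genes Jun and Fos were lower too (−1.90 and −1.88).

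Extra-embryonic markers moved both ways, where 31.4% of all genes were called higher and 26.8% lower. Sox17, an endoderm factor, read 8.47, 7.56 and 9.32 in rEpiES cells at passage 24 and 11.82, 11.25 and 11.62 in ES cells, a difference of −3.11 ± 0.45 with detection on 1 rEpiES passage 24 array. Gata6, a primitive endoderm factor, fell by 1.46, while the lipoprotein gene Apoe was higher by 1.56, and 6 of 9 genes on the list were lower and 2 higher, or 3 lower with median scaling. The summed level of that list was higher in rEpiES cells at passage 24, at 18.66 to 18.85, against 18.19 to 18.31 in ES cells. That sum follows its brightest member at passage 24, Apoe, at a mean of 18.29 against 16.73 in ES cells, and not the 6 lower genes. Of 11 trophoblast genes 6 were lower and 3 higher, with a median of −0.58 that was −0.07 with median scaling. The keratins Krt8 and Krt18, of simple epithelia, were lower (−2.55 and −2.10), and Tfap2c, an AP-2 factor, was higher by 1.06. Of the 7 tested neural ectoderm genes 0 were called with limma, 1 at an unadjusted p under 0.05, and 3 were called with median scaling.

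Of 22 feeder fibroblast markers tested, 11 were lower and 3 higher, where 26.8% of all genes were lower and 31.4% higher. The list median was −0.42, or −0.04 with median scaling. Their summed level was 19.04 to 19.12 in the rEpiES passage 24 arrays and 19.67 to 20.16 in the ES arrays. That sum gives most weight to its brightest member, Vim, at a mean of 17.60 in rEpiES cells at passage 24 and 18.61 in ES cells. Tagln and Acta2, contractile proteins of smooth muscle and activated fibroblasts, were lower (−2.64 and −2.63, Acta2 with detection on 2 rEpiES passage 24 arrays), as were Col1a1 and Col1a2, the chains of type I collagen (−0.87 and −1.55). Thy1, a fibroblast surface protein, was at least 3-fold higher in rEpiES cells at passage 24, and the matrix proteoglycan Bgn was higher by 2.44, so the markers did not move together. With no further normalisation, 3 feeder genes were lower. On the rEpiES passage 24 arrays 20 of 22 feeder markers were detected on all 3 arrays, as were 20 of 22 on the ES arrays. The part of feeder RNA in the streak and endoderm falls was not tested.

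**Figure D4:**
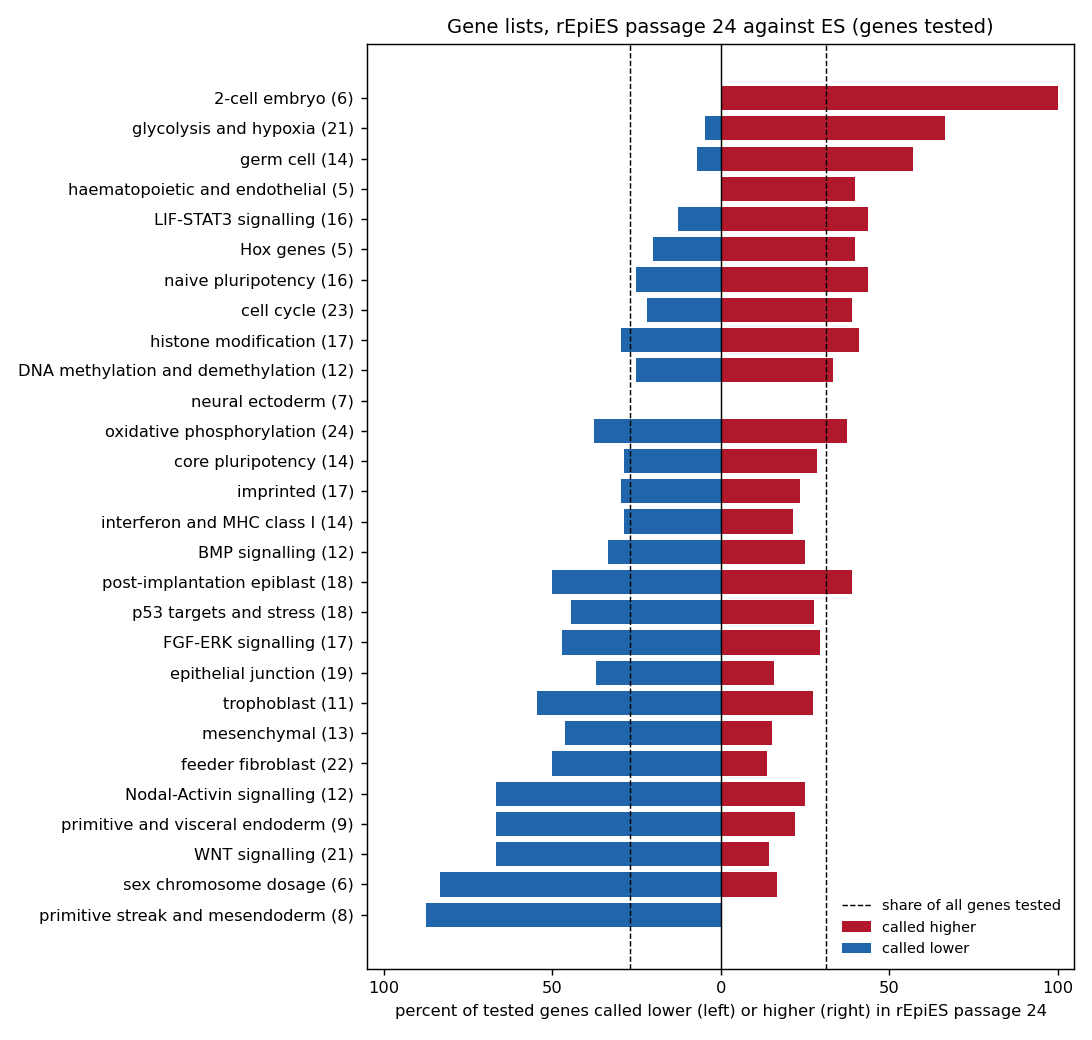
Percent of tested genes called higher (red, right) or lower (blue, left) in rEpiES cells at passage 24 for each of 28 lists, with the number tested in brackets. Dashed lines mark the share over all genes, 31.4% higher and 26.8% lower. The primitive streak list has 7 of 8 lower and the glycolysis list 14 of 21 higher.

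Of 21 glycolysis and hypoxia genes tested, 14 were higher and 1 lower, with a median of 0.78 against 0.09 over all genes. The share of all genes called higher was 31.4%, and 26.8% were called lower. The 3 ES arrays all detected 16 of the 21, and the others, among them Slc2a3, Slc2a1, Pfkm and Vegfa, entered the test through the rEpiES passage 24 arrays. With detection on all 6 arrays, 11 were higher and 1 lower, with a median of 0.46. Slc2a3, a high-affinity glucose transporter, read 15.77, 15.59 and 15.56 in rEpiES cells at passage 24 and 10.22, 9.28 and 10.81 in ES cells, 2 of which detected it. It was 46.4-fold higher (difference 5.54 ± 0.38, limma adjusted p = 0.000204). Slc2a1, the ubiquitous glucose transporter, was higher by 4.38 ± 0.22, with detection on 2 ES arrays. Of the enzymes, Aldoa, which splits fructose bisphosphate, read 18.18, 18.18 and 18.26 in rEpiES cells at passage 24, against 14.74, 14.83 and 15.03 in ES cells, and the muscle phosphofructokinase Pfkm, detected on 1 ES array, and the kinase Pgk1 were higher by 2.92 and 1.83. The call of Pfkm was lost without rEpiES passage 24 replicate 3 (limma adjusted p = 0.0506). Hk2 and Ldha differed by −0.03 and −0.04 and were not called. Slc16a3, a lactate exporter, fell by 1.38. For Slc2a3 and Aldoa the other samples were at the passage 24 level, with means of 15.26 and 18.32 in rEpiES cells at passage 4 and 15.72 and 17.75 in cEpi cells, so that the ES arrays were the ones that stood apart.

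The oxidative phosphorylation list split evenly, with 9 higher and 9 lower of 24, but 2 stood far out. All genes together had 31.4% higher and 26.8% lower. The 9 higher include Esrra (0.60), a nuclear receptor gene that is not part of the respiratory chain. Sdhb, the iron-sulphur subunit of complex II, read 9.95, 10.22 and 10.46 in rEpiES cells at passage 24 and 17.64, 17.68 and 17.23 in ES cells. Ndufb8, an accessory subunit of complex I, read 11.36, 11.14 and 10.92 in rEpiES cells at passage 24 and 17.31, 17.23 and 17.09 in ES cells. These were differences of −7.31 ± 0.19 and −6.07 ± 0.14 (limma adjusted p = 1.87e-05 and 1.65e-05). Other genes of the same complexes moved less, with Sdha at 0.43, Sdhc at 0.52, Sdhd at −0.54 and Ndufa1 at 1.20. Sdhb averaged 17.34 in rEpiES cells at passage 4 and 17.59 in cEpi cells, near the ES level. Of the 9 lower genes, 2 were lower with median scaling.

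The largest rises among named genes included several for which the passage 4 and cEpi arrays lay near the ES level. Tfec, a transcription factor related to Mitf, read 18.54, 18.35 and 18.54 in rEpiES cells at passage 24 and 8.88, 7.71 and 7.94 in ES cells, where it was not detected. It was at least 1260-fold higher (limma adjusted p = 2.49e-05), with means of 8.39 in rEpiES cells at passage 4 and 8.50 in cEpi cells. Dnajc27, a small GTPase with a J domain, was at least 411-fold higher and Enpep, an aminopeptidase of the angiotensin system, at least 308-fold. At least 154-fold was found for Olfr1061, an olfactory receptor gene, 113-fold for Agr2, a protein disulphide isomerase of secretory epithelia, 71.6-fold for Clrn3 and 47.2-fold for Serpinb9c. Man2a2, a Golgi mannosidase detected on every array of both groups, averaged 17.35 ± 0.16 in rEpiES cells at passage 24 and 11.40 ± 0.39 in ES cells (SD, n = 3 each).

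Other large rises were of a second kind, in which ES arrays were low and the others high. Ywhag, a phosphoserine-binding adaptor, averaged 16.07 in rEpiES cells at passage 24 and 10.48 in ES cells, with 15.30 in rEpiES cells at passage 4. Dvl2, which relays WNT signals, was at least 34.4-fold higher, and Kat7, a histone acetyltransferase, at least 27.5-fold. Srsf1, a splicing factor, was 28.2-fold higher. An intermediate case was 1700029P11Rik, with means of 13.34 in rEpiES cells at passage 24, 11.65 at passage 4, 9.46 in cEpi cells and 8.60 in ES cells. The lower count of detected probes and the wider spread on the ES arrays go with these rises, and their part in them was not tested.

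For most of the largest falls, passage 4 and cEpi arrays lay near the ES level and passage 24 arrays were low. Ppp2ca, a catalytic subunit of protein phosphatase, read 8.47, 8.35 and 8.19 in rEpiES cells at passage 24, none detected, and 18.00, 18.10 and 18.15 in ES cells. It was at least 858-fold lower (limma adjusted p = 2.72e-06), with means of 18.39 in rEpiES cells at passage 4 and 18.55 in cEpi cells. Glod4, a glyoxalase-domain protein, was at least 128-fold lower, Fancl, the ubiquitin ligase of the Fanconi anaemia core complex, at least 104-fold, and Psph, which completes serine synthesis, at least 97.8-fold. Bcl9l, a β-catenin coactivator, was at least 63.9-fold lower, Med19, of the Mediator complex, 74.7-fold, Cnih1, a cargo receptor of the secretory pathway, 92.2-fold, and Nsf, the vesicle fusion ATPase, 56.2-fold. Each of these values rests on 1 probe. Of 258 genes with several tested probes, 180 had called probes all in one direction, 43 in opposite directions and 35 none called. Rpl34, named after its values were seen, had one probe called lower (−3.85) and another called higher (0.69).

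Counted over all probes with at least a 2-fold difference, passage 24 arrays stood apart from the 3 other groups more often among the falls. Of 1343 lower probes, 472 (35.1%) had both passage 4 and cEpi means nearer to ES, and 441 (32.8%) had both nearer to passage 24. Of 2051 higher probes, 285 (13.9%) and 983 (47.9%) fell into these classes. At 8-fold or more, 75 of 90 lower probes and 44 of 203 higher ones had passage 4 and cEpi nearer to ES. The passage 4 and cEpi arrays come from files with another column layout, and the comparison of positions was not tested.

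Germ cell and 2-cell embryo genes were called higher more often than lower. The counts were 8 higher and 1 lower of 14 for germ cells and 6 of 6 higher for the 2-cell list, with medians of 1.06 and 1.13. Over all genes 31.4% were higher and 26.8% lower. Dazl, an RNA-binding protein of germ cells, read 12.47, 12.51 and 12.53 in rEpiES cells at passage 24, against 10.99, 10.74 and 9.26 in ES cells, 2 of which detected it. Tcstv3, a gene of the 2-cell stage, was at least 17-fold higher. Tcstv3 averaged 12.09 in rEpiES cells at passage 24, 11.84 at passage 4 and 12.61 in cEpi cells, so the ES arrays were the ones that stood apart. Tcstv1 was placed alike, with means of 12.49, 12.32 and 12.86 in the same order. For the other tested genes of the 2-cell list the cEpi mean lay nearer to ES. Sohlh2 and Hormad1, a germ cell transcription factor and a meiotic chromosome axis protein, were higher by 2.87 and 2.56, each with detection on 1 ES array. All 14 germ cell genes were detected on the 3 rEpiES passage 24 arrays and 5 on the 3 ES arrays, so most entered the test through the group in which they were high. On the 2-cell list 3 genes were detected on no ES array and entered in the same way. With detection required on all 6 arrays, 3 of 5 germ cell genes and 3 of 3 2-cell genes were higher, with medians of 0.30 and 0.33.

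Chromatin genes differed singly. Uhrf1, which recruits Dnmt1 to replicated DNA, read 15.68, 15.68 and 15.66 in rEpiES cells at passage 24 and 13.00, 13.13 and 13.14 in ES cells, a 6.01-fold higher level (difference 2.59 ± 0.08, limma adjusted p = 2.49e-05). Dnmt3b, a de novo methyltransferase, was lower (difference −1.01 ± 0.13, and −1.06 at a second probe), and the first of these was not called with no further normalisation (limma adjusted p = 0.06). Dnmt3l, its catalytically inactive partner, differed by 0.03 ± 0.07 with overlapping groups (limma adjusted p = 0.729). Of the Polycomb genes, Suz12 was higher by 1.31 ± 0.10, and Ezh2, the methyltransferase, fell by 1.14. Among 17 imprinted genes 4 were higher and 5 lower, where 31.4% of all genes were higher and 26.8% lower. Peg10 read 11.73, 11.53 and 11.77 in rEpiES cells at passage 24 and 15.03, 15.15 and 15.56 in ES cells, and Cdkn1c and Phlda2, growth-restraining genes expressed from the maternal allele, were lower (−2.63 and −3.06). Impact was higher by 2.91. The Y-linked genes Uty and Eif2s3y were lower, Eif2s3y at 13.36 ± 0.02 in rEpiES cells at passage 24 and 16.33 ± 0.10 in ES cells (SD, n = 3 each), and its X-linked counterpart Eif2s3x was higher by 1.39. The X-linked Kdm6a, Ddx3x and Rlim were called lower (−0.78, −0.73 and −0.25), and 2 genes of this list of 6 were lower with median scaling. Kdm6a was not called with median scaling (limma adjusted p = 0.086). The difference of Rlim is smaller than the shift of the overall median with that scaling, from 0.05 to 0.45, so its direction can depend on the scaling.

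One chromosome stood out when the named probes were grouped by position. For each array the median deviation of a chromosome's probes from the 6-array mean was taken, less that of all named probes. On chromosome 8, with 441 named probes, it was 0.122, 0.118 and 0.109 in rEpiES cells at passage 24 and −0.102, −0.13 and −0.122 in ES cells. The groups did not overlap and the difference was 0.235. An exact two-sided permutation test gave p = 0.1, the smallest that 3 against 3 arrays allow, and 0.125 after adjustment over 20 chromosomes. The same p and non-overlapping groups were found for 16 of the 20, so chromosome 8 differs from them in size alone, which was not tested. The other chromosomes lay between −0.149 and 0.0922, with chromosome X at −0.118. Of the 441 probes 191 (43.3%) were called higher and 74 (16.8%) lower, against 25.7% to 37.5% higher on the other chromosomes. List members on chromosome 8 went both ways. For example, Klf2, Zfp42 and Bst2 were called higher, Col4a1, Fgfr1 and Dusp4 were called lower, and Cdh1 was not called. Measured against the mean of all 12 arrays, chromosome 8 stood at 0.125 to 0.143 in rEpiES cells at passage 24, at −0.044 to −0.015 at passage 4, at −0.078 to −0.051 in cEpi cells and at −0.141 to −0.118 in ES cells. DNA copy number was not analysed here.

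**Figure D5:**
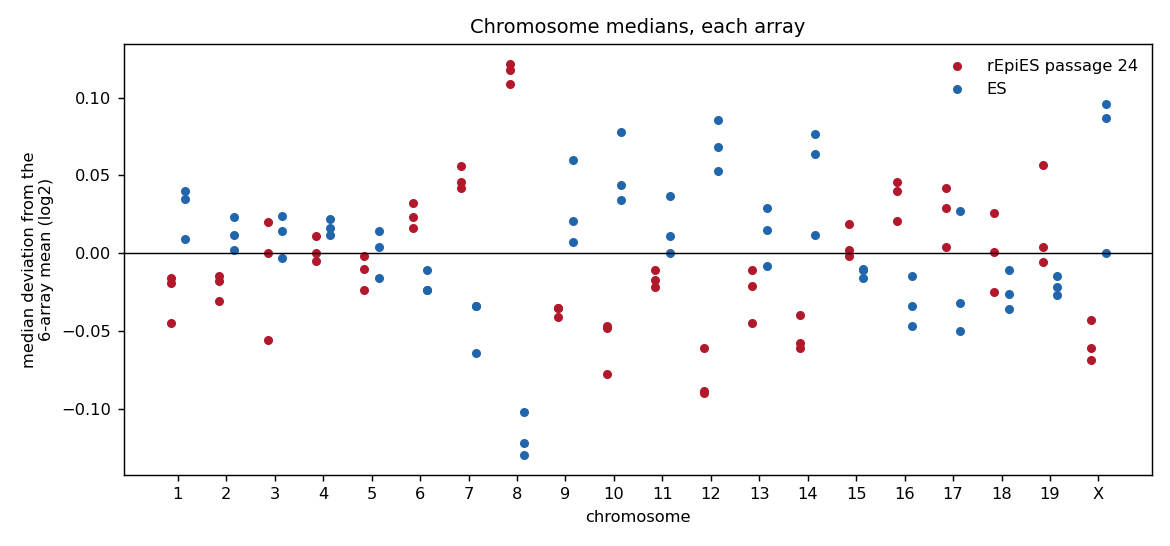
Median deviation of the named probes of each chromosome from the 6-array mean (log2), less that of all named probes, for each array of rEpiES cells at passage 24 (red) and ES cells (blue). On chromosome 8 the red points lie at 0.109 to 0.122 and the blue points at −0.13 to −0.102, and no other chromosome has so wide a gap.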

How the data were processed

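Total RNA was labelled with digoxigenin and hybridised to Applied Biosystems mouse arrays, per the labels' protocols. The authors deposited for each array a linear signal intensity, a signal-to-noise score, a quality code and a quantile-normalised log2 value, per the file headers. In the cEpi and passage 4 files the headers of score and code are exchanged, so columns were taken by their contents. The values of equal rank agree between arrays within 0.0284. The software behind these steps is not given in the sources used here. The log2 values were fitted with limma 3.58.1 in R 4.3.3 (residual degrees of freedom 4) over the probes with a score of at least 3 on all 3 arrays of either group, with Benjamini-Hochberg adjustment. The fit recovered seeded changes in a test on simulated data. Gene names come from the platform annotation: 14411 of 33012 probes had 1 symbol, 247 several and 18354 none here. The brightest probe stood for a gene. Named genes were the 15 largest rises and 15 largest falls with non-overlapping groups, at most 4 called members of each of 28 lists with the largest differences, and 10 pluripotency and epiblast genes. Other list members are named to show the members that moved less. The lists and the genes were chosen with earlier results of these data known. The alternatives tried were other scalings, detection filters, a fit of all 12 arrays, array weights, a replicate block, leaving out each array, and dropping values with a high quality code. Promoter sequences come from RefSeq, GRCm38.p6.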

Additional observations from a re-analysis of the deposited data

How the results depend on the processing

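Total calls ranged from 5121 with no detection filter to 8822 in the fit of all 12 arrays, and 7933 were made with array weights. With median scaling or no further normalisation, 1313 or 1210 probes were lower, 3366 or 3125 higher and 657 or 723 lower by at least 2-fold. Detection on all 6 arrays left 918 probes higher by at least 2-fold, since probes undetected in ES cells were no longer tested. Calls without 1 array ranged from 5745 to 8042. The chromosome 8 difference was 0.254 with detection on all 6 arrays and 0.213 to 0.247 without 1 array. Of 131 named genes, Sox2 turned direction, to 0.13 with median scaling and 0.0744 with no further normalisation, and a further 7 and 9 genes were no longer called under those settings. Without 1 array, 1 to 10 of the 131 were no longer called, and Pou5f1 was called without ES replicate 3 (difference 0.40, limma adjusted p = 0.0173). With the replicate block 6451 probes were called, and 4 of the 131 genes were no longer called. Same-numbered arrays correlated at −0.0109, −0.0246 and 0.0012 in their deviations over the tested probes, so no pairing by number was seen. Whether equal numbers share a processing batch was not tested. The number of arrays, 3 a group, limits the precision.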

Other observations

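Cell cycle genes split, with 9 higher and 5 lower of 23 tested, near the 31.4% higher and 26.8% lower of all genes. The list median was 0.10, against 0.09 over all genes. Mcm2, a subunit of the replicative helicase, read 15.90, 15.82 and 15.94 in rEpiES cells at passage 24, against 13.34, 13.38 and 13.37 in ES cells, and the cyclin Ccnd3 was higher by 2.84 ± 0.09. The inhibitors Cdkn1a and Cdkn2b were lower (−1.19 and −1.22), and Cdkn2b was not called with no further normalisation. Txnip, a thioredoxin inhibitor that responds to glucose, was higher by 3.04 ± 0.26.

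Junction and mesenchymal genes also held single large changes. Ctnna1, the α-catenin that ties cadherins to actin, read 15.71, 15.74 and 15.62 in rEpiES cells at passage 24 and 12.94, 13.01 and 12.93 in ES cells. Cdh2, the neural cadherin, fell by 2.67 at one probe and differed by −0.74 at another that was not called (limma adjusted p = 0.0538). Snai1 and Mmp14, a repressor of epithelial genes and a membrane metalloproteinase, were lower (−1.84 and −1.83), Snai1 with detection on 2 rEpiES passage 24 arrays. The MHC class I light chain B2m fell by 1.19.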
